A study of Mus musculus with 2 samples.

Results

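The regions described here were stretches of mouse chromosomes 1 to 19 that carried trimethylated lysine 4 of histone H3 (H3K4me3) in both an Lsh+/+ and an Lsh-/- cell line, were narrower than 4000 bp and had a high CpG content. In each library, windows of 200 bp holding 6 reads or more were joined where no more than 1000 bp lay between them, and the stretch was kept if it summed to 20 reads or more. Overlapping stretches of both libraries were merged, and a merged region was a member when the reads inside it gave an observed over expected CpG of 0.6 to under 0.8, that is, the number of CG steps divided by the number that its share of G and C bases would give by chance placing. Of 11797 merged regions, 10257 were drawn in both libraries, 9907 of these were narrower than 4000 bp, and 4784 were members. The members were thus chosen by their reads, widths and base composition, and these values are given as a description. The ratio between the libraries did not enter the rule, but a member had to be drawn in both libraries, which leaves out regions that were marked in only 1 of them.

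The libraries came from chromatin of mouse embryonic fibroblast (MEF) lines that were wild type (Lsh+/+) or lacked Lsh (Lsh-/-), 1 library per genotype, both grown in the same medium with no treatment named. Lsh, encoded by Hells, is an SNF2-type ATPase that remodels chromatin, and cells without it have lost part of their DNA methylation. Chromatin of 20000000 cells was cut with micrococcal nuclease to mostly single nucleosomes and precipitated with an antibody against the mark, and no input library was used here. Each genotype was 1 line and 1 library, so a difference between the lines cannot be told apart from an effect of Lsh, and no test over samples was possible. The sources used here do not say how the lines were made or which part of Lsh is deleted.

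H3K4me3 sits on nucleosomes at the start sites of active and poised genes. In mammals most such start sites lie in CpG islands, stretches where CG steps are common because they are kept free of DNA methylation. CpG islands recruit H3K4 methyltransferase complexes through proteins that bind unmethylated CG, and H3K4 methylation in turn keeps the DNA methyltransferases away, so the mark and DNA methylation are usually found apart. The stretch just before the start is usually free of nucleosomes, and positioned nucleosomes follow it on the downstream side.

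Members were tied to genes through their reads: a gene was named when at least 2 distinct reads inside a region matched, over all 25 bases, words found only in that gene's promoter in the RefSeq table (GRCm38.p6, 250 bases before to 50 after each start). The 250 bases before the start of 5 member genes are printed to show what such a promoter looks like, in lower case with every CG step in capitals, each 5′ to 3′ on the strand of the gene. They are Hells, the targeted gene (chr19:38930740-38930989, + strand), Kcnd2, tied to the member that led the higher ratios (chr6:21215096-21215345, + strand), Mpped2, tied to the gene-bearing member that led the lower ones (chr2:106693299-106693548, + strand), Tet1, a member of the DNA methylation list with a lower ratio (chr10:62887325-62887574, - strand), and Rpl37, a ribosomal protein gene whose ratio stayed under the threshold (chr15:5116363-5116612, + strand). These coordinates are on GRCm38.p6, whereas all others below are on mm8, the build of the files.
Hells: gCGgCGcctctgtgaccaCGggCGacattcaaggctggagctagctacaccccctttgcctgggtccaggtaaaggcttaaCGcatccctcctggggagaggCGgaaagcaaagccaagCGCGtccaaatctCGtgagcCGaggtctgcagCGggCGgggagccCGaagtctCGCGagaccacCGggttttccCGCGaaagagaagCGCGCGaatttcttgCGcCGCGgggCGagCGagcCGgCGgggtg
Kcnd2: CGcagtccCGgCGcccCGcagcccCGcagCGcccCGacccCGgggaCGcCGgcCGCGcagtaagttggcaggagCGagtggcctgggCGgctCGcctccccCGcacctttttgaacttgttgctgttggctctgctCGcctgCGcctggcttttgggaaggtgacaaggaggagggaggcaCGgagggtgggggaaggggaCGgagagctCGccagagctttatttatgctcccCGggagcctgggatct
Mpped2: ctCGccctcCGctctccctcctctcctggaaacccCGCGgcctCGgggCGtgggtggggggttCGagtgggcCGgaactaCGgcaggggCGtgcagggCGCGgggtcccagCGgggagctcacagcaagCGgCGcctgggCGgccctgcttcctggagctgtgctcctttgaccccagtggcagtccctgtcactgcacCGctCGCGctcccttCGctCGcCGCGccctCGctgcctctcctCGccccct
Tet1: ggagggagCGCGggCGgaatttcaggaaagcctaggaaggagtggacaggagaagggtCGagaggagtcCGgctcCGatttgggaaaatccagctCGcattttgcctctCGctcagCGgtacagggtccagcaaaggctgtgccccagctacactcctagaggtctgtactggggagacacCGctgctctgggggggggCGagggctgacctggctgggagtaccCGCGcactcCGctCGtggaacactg
Rpl37: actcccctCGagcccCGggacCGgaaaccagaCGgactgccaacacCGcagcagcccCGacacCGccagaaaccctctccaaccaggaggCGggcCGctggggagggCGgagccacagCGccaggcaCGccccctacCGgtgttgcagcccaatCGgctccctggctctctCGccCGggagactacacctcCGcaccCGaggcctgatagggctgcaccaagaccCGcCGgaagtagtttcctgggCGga

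The printed stretches held 28 CG steps for Hells, 25 for Mpped2, 22 for Kcnd2, 21 for Rpl37 and 15 for Tet1. Their own observed over expected CpG was 1.05, 0.74, 0.75, 0.70 and 0.61 in the same order. All 5 held GGGCGG, the letters bound by Sp factors, on either strand, at 1 place in 4 of them and at 2 places in Rpl37. Rpl37 also held CCGGAAG, read by ETS factors, and CCAAT, read by Nfy, once each.

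The labelled cell type was checked at promoters. Of 12 fibroblast markers in the promoter table, 6 lay in a region: Col5a1 and Twist1 in members, and Vim, Twist2, Prrx1 and Fbln2 in other regions. Col5a1, a fibrillar collagen chain, had 156 Lsh+/+ and 196 Lsh-/- reads, and Twist1, a mesenchymal transcription factor, had 77 and 96. The other 6 (Col1a2, Col3a1, S100a4, Pdgfra, Sparc and Tcf21) lay in no region and had 0 to 5 matching reads. Of 10 markers of other cell types in the table, 0 lay in a region, and their promoters had 0 to 2 matching reads. The libraries held 2471782 (Lsh+/+) and 2790389 (Lsh-/-) distinct reads, after 13.9% and 18.6% of reads that repeated a position and strand were set aside.

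Members held a larger share of the Lsh-/- library than of the Lsh+/+ library. They took 11.2% of the Lsh+/+ and 14.8% of the Lsh-/- distinct reads, and the median member had 54 reads (9 to 202) in Lsh+/+ and 80 reads (9 to 302) in Lsh-/-. In RPKM (distinct reads per kb of region and per 1000000 distinct reads of the library), the median level was 13.7 in Lsh+/+ and 17.9 in Lsh-/-, against a background of 0.299 and 0.266 outside the regions. Over all regions drawn in both libraries the median ratio of Lsh-/- to Lsh+/+ reads was 1.47, which is 1.31-fold above the ratio of the library totals, a shift of 0.38 on the log2 scale. With no input or spike-in, the yield of the precipitation and the amount of the mark cannot be told apart, so ratios below are relative to that median unless stated otherwise.

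On the log2 scale the members' median ratio was 0.01 and the quartiles -0.21 and 0.24, and the central 90% ran from -0.64 to 0.58. Because members make up 4784 of the 10257 regions that set the scale, a median near 0 follows from the scaling. A member was called when its ratio was 2-fold or more in either direction, the 95% interval of the ratio (exact, conditional on the sum of reads, after Clopper and Pearson) left out 1, and both libraries together had 20 reads or more. Such intervals, like the others of read ratios here, cover counting error alone, since PCR copies carried no molecular identifiers and reads need not stem from separate molecules. Intervals of shares of regions take the regions as separate draws, although all regions share the same libraries. Neither kind covers differences between cultures. Of 4784 members, 26 were called higher in Lsh-/- (0.543%) and 73 lower (1.53%). Over all 9904 shared regions under 4000 bp that had enough reads, the higher calls numbered 79 (0.798%) and the lower calls 172 (1.74%), so the members' shares were near the background. The shares were 2.59% and 4.36% over all 11470 merged regions that had enough reads, which include those drawn in 1 library only. The direction of the calls depended on the scaling: scaling by the median ratio put 26.3% of the called members on the higher side, and scaling by total reads put 89.2% there (199 of 223, leaving 24 lower).

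**Figure D1:**
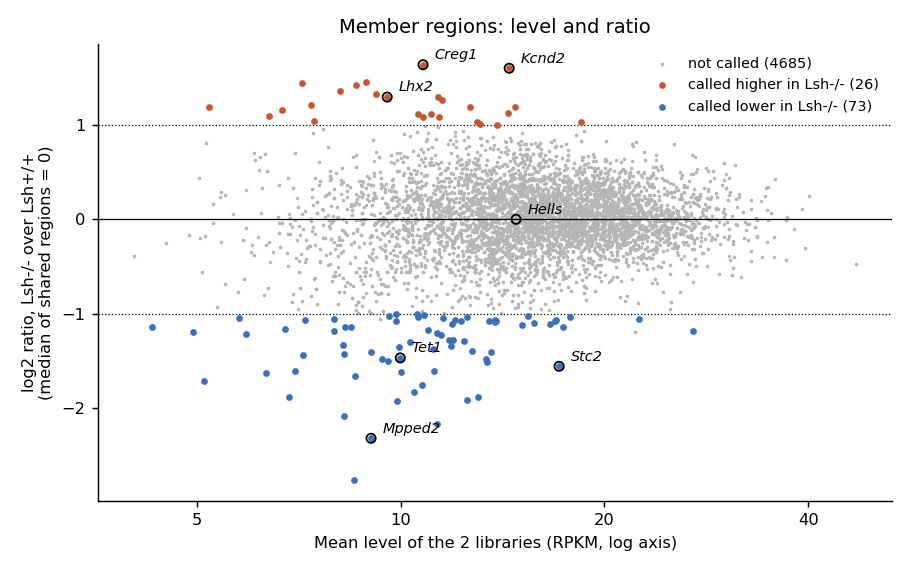
Each point is 1 of the 4784 members, with the mean level of the libraries in RPKM on a log x axis and the log2 ratio of Lsh-/- to Lsh+/+ reads on the y axis, where 0 is the median of the shared regions and the dotted lines mark 2-fold. The 26 members called higher and 73 called lower lie outside the dotted lines and mostly at low to middle levels, while Hells lies at a log2 ratio of 0.00.

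The neighbouring classes of CpG content are given for comparison, with no test, since all classes share the same libraries. Of 2589 shared regions with an observed over expected CpG of 0.3 to under 0.6, 33 were called higher (1.27%) and 51 lower (1.97%). Of the 2328 regions at 0.8 or more that could be tested, 15 were higher (0.644%) and 35 lower (1.5%). Of 203 regions under 0.3, 5 were higher (2.46%) and 13 lower (6.4%). The exact intervals of the members' shares were 0.355% to 0.795% for higher and 1.2% to 1.91% for lower. The shares of the neighbouring classes have an uncertainty of their own, for which no interval was taken, so whether the classes differ was not tested. The regions under 0.3 had a median of only 29.5 reads in Lsh+/+ and 39.5 in Lsh-/-, where counting error is larger. Inside the members, 4 equal steps of CpG content gave 9, 3, 7 and 7 higher and 18, 19, 16 and 20 lower calls, in order of rising content, with no steady course.

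Regions next to the limits of the rule are given as a description. The promoter regions of Fkbp9 and of Wdpcp and Mdh1 lay just below 0.6 and had log2 ratios of 0.63 and 0.22. Those of Ncbp1 with Tstd2 and of Prpf6 lay just above it, at -0.01 and 0.37. At the upper limit, the regions of Cep72 (0.19) and of Mcm7 with Ap4m1 (0.00) were just inside, and those of Zc3hav1 (-0.18) and Oscp1 (-0.06) just outside. By width, 36 members measured 3800 bp, among them the region of Ddx39b (175 and 241 reads, log2 ratio -0.10), and 23 regions of the same CpG content measured 4000 bp, among them those of Rtn4rl2 (56 and 119, 0.53) and Icam5 (57 and 94, 0.16).

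A promoter could be tied to 3110 of the 4652 members outside chromosome 18 (66.9%, exact interval 65.5 to 68.2). Promoters of the 132 members on chromosome 18 were not analysed here. The share was 60.1% (58.1 to 62.0) for regions with a CpG of 0.3 to under 0.6 and 64.97% (62.96 to 66.94) for those at 0.8 or more. The 3110 members held promoters of 3786 genes: 2425 had 1 gene and 685 had at least 2, where overlapping promoters can rest on the same reads. In 523 (16.8%, 15.5 to 18.2) a pair of start sites faced away from each other less than 1000 bp apart, an arrangement of bidirectional promoters that was found in 14.4% (12.7 to 16.3) and 13.99% (12.3 to 15.9) of the lower and higher CpG class. Of the 1542 members with no tied promoter, 257 (16.7%) had a placed start site within 1 kb.

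Calls were counted apart for members with and without a tied promoter. Of the 3110 with one, 13 were called higher (0.418%) and 34 lower (1.09%), and of the 1542 without one, 7 were higher (0.454%) and 37 lower (2.4%). Members without one also had fewer reads, with medians of 47 and 68 against 57 and 86, and neither the difference in calls nor the part of depth in it was tested. Among the 523 bidirectional members 3 were higher and 0 lower, and their median log2 ratio was 0.06. For the 0 of 523, an approximate upper limit of the share, 3 divided by 523, was 0.574%. This is not the exact limit used for other shares of regions, which would be higher. Among the 2441 whose starts all ran in 1 direction, 9 were higher and 32 lower, with a median of 0.00. The other 146 held starts in both directions that overlapped or lay farther apart, and 1 of them was higher and 2 lower. The 0 depends on this classing: with opposed starts within 1000 bp counted in any order, a classing chosen after the data were seen, there were 634 such members, 4 of them higher and 2 lower. The bidirectional members were also wider, with a median of 2000 bp against 1600 bp.

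The promoters in members are described by their letters. Since the CpG content of the region chose the members, the counts of CG steps and of motifs that hold a CG were partly chosen with it. The 300 bases of the 3110 promoters had a median of 24 CG steps, an observed over expected CpG of 0.81 and 63.7% G and C, against 7, 0.38 and 52.7% over all 32851 promoters of the table. The promoter itself was within 0.6 to 0.8 in 1049 cases, above in 1617 and below in 444. Exact letters were searched on both strands, each motif on its own, so that matches of different motifs could overlap. GGGCGG (Sp) was found in 71.2% of the 3110 promoters against 35.7% of all promoters, CCGGAAG (ETS) in 21.7% against 8.86%, GCGCATG (Nrf1) in 7.43% against 3.91% and TGACGTC (Creb) in 5.98% against 3.21%. All 4 hold a CG. Of the motifs without CG, AAGATGG (YY1) was found in 8.20% against 6.34%, CCAAT (Nfy) in 34.2% against 37.4%, and TATAAA, the letters of the TATA box, in 5.08% against 13.6%. The classes on either side were close to the members for GGGCGG (67.04% at lower and 71.8% at higher CpG) and TATAAA (4.61% and 4.44%), and CCAAT fell in order of CpG content (38.2%, 34.2% and 30.03%). These matches describe the letters of the promoters and do not show that a factor was bound.

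Around the 3110 start sites, placed on mm8 by the matching reads, reads of the mark formed a series of peaks with a dip at the start. Reads were moved 75 bp in reading direction, which puts them near the middle of a nucleosome, and levels are in RPKM averaged over promoters. The lowest level near the start was at -45 bp in both libraries, with 5.18 in Lsh+/+ and 6.44 in Lsh-/-. The first downstream nucleosome peaked at 135 bp in both, with 26.2 and 31.5. The second peaked at 325 bp in Lsh+/+ (22.1) and 335 bp in Lsh-/- (27.8), and the third at 495 bp (18.2) and 505 bp (23.8). Upstream, a peak lay at -215 bp (15.3) and -205 bp (20.5). In 10 bp bins, these positions differed by at most 1 bin between the libraries. Since a promoter was placed by reads between 250 bp before and 50 bp after the start, the level in that stretch was partly chosen.

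The downstream side held more of the mark. Within 1 kb, downstream reads outnumbered upstream reads by 1.85-fold in Lsh+/+ and 1.73-fold in Lsh-/-, and by 2.39-fold and 2.20-fold at members whose starts ran in 1 direction. At the 523 bidirectional members the first nucleosomes on both sides peaked at 23.7 downstream and 23.3 upstream in Lsh+/+ and 31.1 and 30.7 in Lsh-/-. There the downstream reads within 1 kb were 0.84-fold and 0.85-fold the upstream reads, with distances taken along the gene that had the most matching reads.

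**Figure D2:**
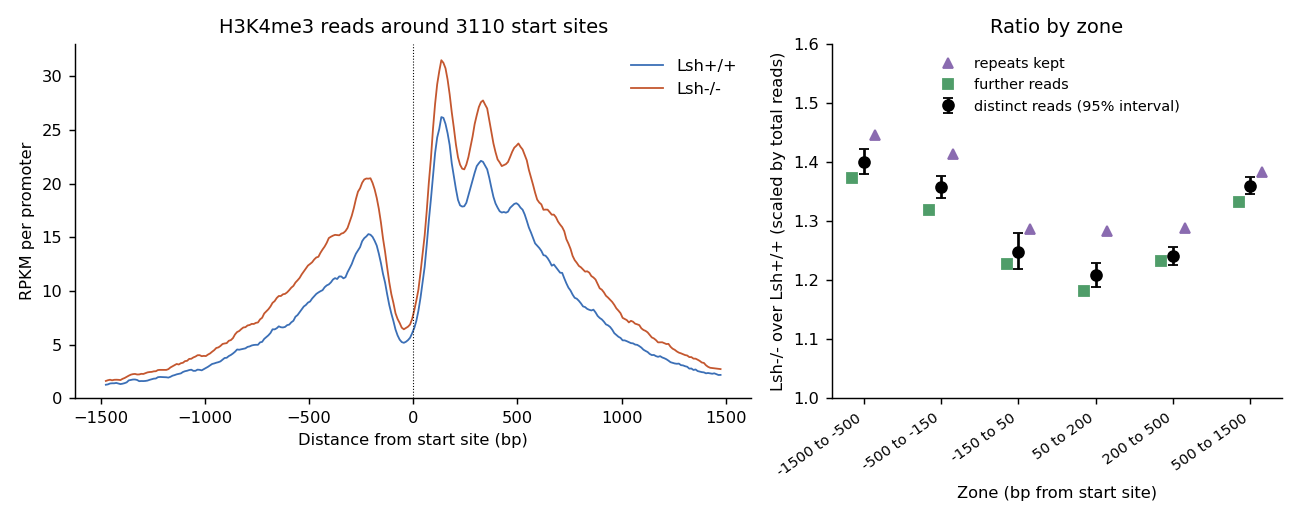
Left, RPKM averaged over promoters (y axis) against the distance from the start site in bp (x axis), smoothed, for Lsh+/+ and Lsh-/- at 3110 start sites. Right, the ratio of Lsh-/- to Lsh+/+ scaled by total reads in 6 zones, with 95% intervals for distinct reads, with repeats kept (triangles) and in further reads placed at the centres of 200 bp windows (squares). The ratio is lowest at 50 to 200 bp for each kind of read and highest at the outer zone upstream.

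Over the 3110 start sites together, the excess of Lsh-/- reads was larger away from the start sites than at the first nucleosome after them. The outer zones reach 1500 bp from the start and lie partly outside the members, whose drawn regions had a median width of 1200 bp in Lsh+/+ and 1600 bp in Lsh-/-. Scaled by total reads, Lsh-/- over Lsh+/+ was 1.21 (1.19 to 1.23) at 50 to 200 bp, the first nucleosome, and 1.24 (1.23 to 1.26) at 200 to 500 bp. It was 1.36 (1.35 to 1.38) at 500 to 1500 bp downstream, 1.36 (1.34 to 1.38) at -500 to -150 bp and 1.40 (1.38 to 1.42) at -1500 to -500 bp. The outermost upstream zone over the first nucleosome gave 1.16 (1.13 to 1.18, from the counts of reads). The share of repeated reads moved with this: it was 39.5% in Lsh+/+ and 46.2% in Lsh-/- at the first nucleosome, and 25.2% and 31.5% in the outermost upstream zone. With repeats kept, which removes the ceiling of 1 read per position and strand, the same quotient was 1.13, and in further reads of the deposited window lists, described below, it was 1.16. The further reads could only be placed at the centres of 200 bp windows, which are wider than the zone at 50 to 200 bp, so their zones are blurred.

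The same reads were also counted promoter by promoter. For 2857 promoters with enough reads in both libraries, the share of reads beyond 500 bp among those beyond 500 bp and at 50 to 500 bp was higher in Lsh-/- at 1802 (63.1%), lower at 1037 and equal at 18. The median share was 52.7% in Lsh+/+ and 56.6% in Lsh-/-, and it was higher in Lsh-/- on 17 of 18 chromosomes. Promoters and chromosomes share the same libraries, so these counts show how widely the difference was spread and do not repeat it. The pattern was not particular to the members: the ratio in the outermost upstream zone and at the first nucleosome was 1.38 and 1.24 in the class with less CpG, and 1.36 and 1.17 in the class with more. It was less marked at the 523 bidirectional members. There the ratio was 1.33 (1.27 to 1.39) at 50 to 200 bp, 1.30 at 200 to 500 bp and 1.29 at -500 to -150 bp. Only their outermost zones stood above this, with 1.43 at -1500 to -500 bp and 1.44 at 500 to 1500 bp. With 1 library each, the degree of nuclease digestion, the size selection and the genotype cannot be told apart.

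Widths depended on the minimum of reads per window. The median member was 1200 bp wide in Lsh+/+ and 1600 bp in Lsh-/-. It was wider in Lsh-/- in 2962 members (61.9%), equal in 1215 (25.4%) and wider in Lsh+/+ in 607 (12.7%), with a mean difference of 223 bp. A fixed minimum of 6 reads per window draws a wider region where the level is higher. When the Lsh-/- windows were thinned by the median ratio of the shared regions, 39.7% were wider in Lsh-/-, 33.6% equal and 26.7% wider in Lsh+/+, with a mean difference of 41.3 bp. When the Lsh-/- minimum was instead raised to 20 reads, where its regions took the same share of window reads as in Lsh+/+ (28.6% against 28.5%), 1.56% were wider in Lsh-/- and 82.7% in Lsh+/+. The direction of the width difference thus turned with the raised minimum and was kept, though weaker, after thinning. These shares were taken over the 4673 members still drawn after thinning and the 4413 drawn with the raised minimum. A minimum of 20 against 6 reads is a stricter cut than the median ratio of 1.47. Narrower Lsh-/- regions follow in part from that cut.

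**Figure D3:**
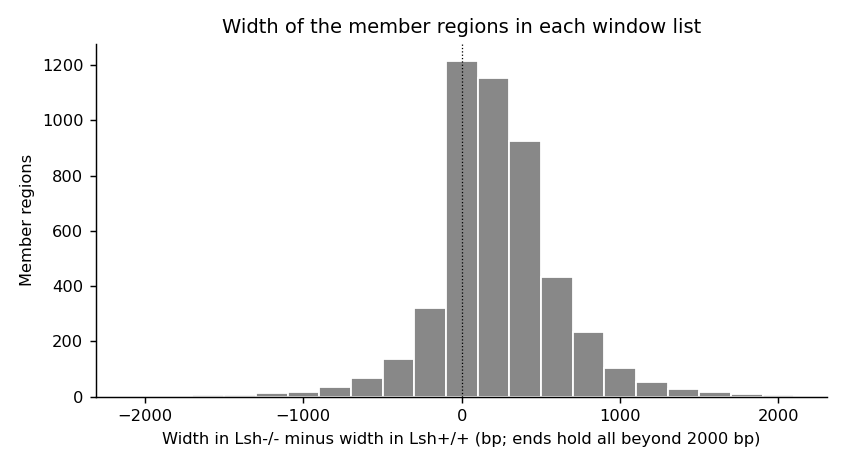
Number of member regions (y axis) by the difference of their widths, Lsh-/- minus Lsh+/+ in bp (x axis, 200 bp steps), with the fixed minimum of 6 reads per window in both libraries. Most members lie at 0 or to the right of it: 1215 were equal and 2962 wider in Lsh-/-.

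Of the 10 leading members called higher, ranked by the bound of the interval nearest to 1, 5 had a tied gene. At Kcnd2, which encodes a voltage-gated potassium channel of the A type, the region chr6:21164001-21165800 had 26 Lsh+/+ and 116 Lsh-/- reads, 3.03-fold higher (1.97 to 4.83). At Creg1, encoding a secreted glycoprotein, 19 and 87 reads lay in chr1:167600401-167602200, 3.11-fold higher (1.88 to 5.41). Hdac5, a class II histone deacetylase, had 17 and 67 reads, 2.67-fold higher (1.55 to 4.86), a call that was lost with the deposited window counts (log2 ratio 0.79). In all 3 the Lsh-/- region was wider, at 1800 bp against 1200, 600 and 1000 bp. Slc27a1, a fatty acid transporter, had 22 and 78 reads, 2.41-fold higher (1.48 to 4.06). Lhx2, a LIM homeobox transcription factor, shared its region with Gm27197 and had 18 and 65 reads, 2.45-fold higher (1.44 to 4.39). All 5 thus had under 30 Lsh+/+ reads, below the members' median of 54. The Lsh+/+ reads are part of the ratio that ranked them, so this was partly chosen.

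The other 5 had no tied gene. They were chr10:114989601-114992000 with 23 and 93 reads (2.74-fold higher), chr12:55123801-55125600 with 14 and 56 (2.71-fold), chr1:172947401-172949000 with 17 and 63 (2.51-fold), and chr18:56556601-56558400 and chr18:24162401-24164400 with 33 and 111 (2.28-fold) and 37 and 119 (2.18-fold). Both regions on chromosome 18 lost the call with the background ratio of 5 Mb bins in the scaling, at log2 ratios of 0.73 and 0.47, and with the deposited window counts, at 0.99 and 0.88. The nearest placed start to the region on chromosome 1 was that of Cfap126 at 1.66 kb. The remaining 16 higher calls were all under 2.6-fold. Named after their values were seen, those with a gene were Hic1, a transcriptional repressor whose promoter is often methylated in tumours (22 and 74 reads), Pde10a, a cyclic nucleotide phosphodiesterase (20 and 68), Kcnmb4 with Kcnmb4os2 (22 and 72), Gpc2 with Stag3 (22 and 70), Glrx2 with Gm46161 (20 and 64), Nemp2 (21 and 63), Ggct (18 and 56) and Dact1, which acts in Wnt signalling (17 and 53). Of the 13 higher calls with a gene, 8 stood with 5 Mb background scaling and 5 with the deposited window counts: Kcnd2, Creg1, Slc27a1, Lhx2 and Gpc2 with Stag3.

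Of the 10 leading members called lower, 3 had a tied gene. At Mpped2, encoding a metallophosphoesterase, chr2:106494001-106496200 had 78 Lsh+/+ and 23 Lsh-/- reads, 5.0-fold lower (3.11 to 8.34), and its width was 2200 bp in Lsh+/+ and 600 bp in Lsh-/-. Ch25h, encoding cholesterol 25-hydroxylase, had 53 and 22 reads in chr19:34540601-34542000, 3.55-fold lower (2.12 to 6.13). Hoxb3os, a transcript antisense to Hoxb3, had 133 and 53 reads in chr11:96168001-96170800, 3.70-fold lower (2.67 to 5.19). In this stretch of the HoxB cluster, Hoxb4 at chr11:96134001-96137000 had 75 and 59 reads and was not called, at 1.87-fold lower (1.31 to 2.68). Between them lay another lower call with no tied gene, chr11:96156801-96158400, named after its values were seen. It had 52 and 27 reads, 2.84-fold lower (1.75 to 4.70).

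The largest fold among the lower calls was at chr4:13670001-13673000, with 106 Lsh+/+ and 23 Lsh-/- reads, 6.79-fold lower (4.30 to 11.2). It had no tied gene, and its drawn width was 3000 bp in Lsh+/+ and 400 bp in Lsh-/-. The region chr3:33009201-33010400 had 52 and 17 reads, 4.51-fold lower (2.56 to 8.32), and the nearest placed start, that of the ubiquitin-specific protease gene Usp13, lay 26 bp from it. The region chr11:12363001-12365400 had 75 and 26 reads, 4.25-fold lower (2.69 to 6.92), and 1 read in it matched the promoter of Cobl, which encodes an actin nucleator. The region chr4:124488201-124490000 had 69 and 30 reads, 3.39-fold lower (2.18 to 5.39), and 1 read there matched Rspo1, which encodes an activator of Wnt signalling. The other 3 lay at chr9:36894601-36896800 with 80 and 31 reads (3.80-fold lower), chr9:58108001-58111600 with 125 and 60 (3.07-fold) and chr5:114436401-114437400 with 46 and 18 (3.77-fold).

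**Figure D4:**
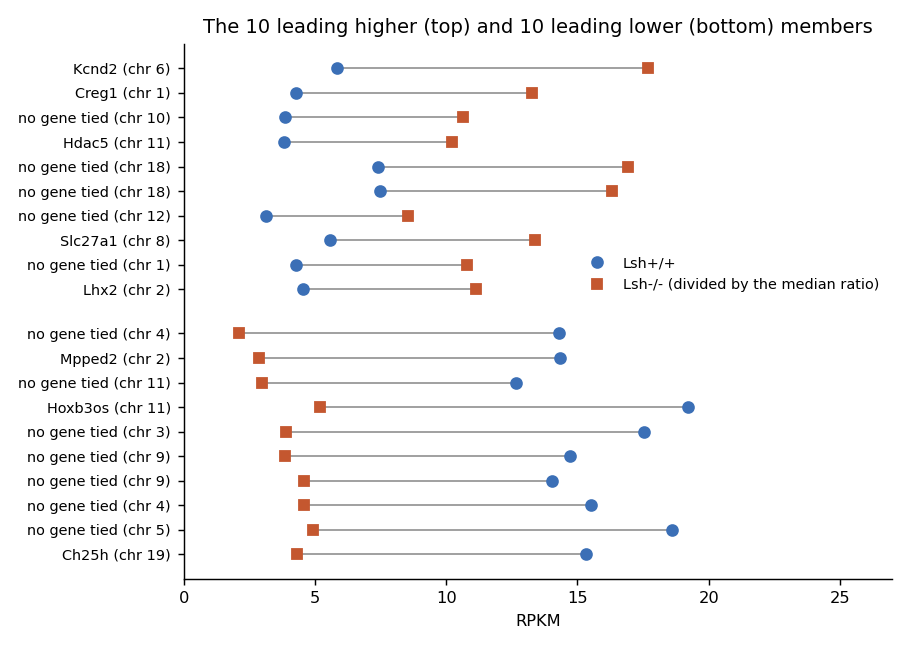
Levels in RPKM (x axis) of the 10 leading members called higher (top) and the 10 leading called lower (bottom), in Lsh+/+ (circles) and in Lsh-/- after division by the median ratio over the ratio of totals, 1.31 (squares). The higher members lay between 3.15 and 7.48 in Lsh+/+, and the lower members between 12.6 and 19.2. The ratio that ranked them includes the Lsh+/+ reads, so this contrast was partly chosen.

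Other lower calls with a gene, named after their values were seen, included Stc2, a secreted glycoprotein hormone (94 and 47 reads, 2.95-fold lower), Hunk, a protein kinase (91 and 47, 2.85-fold), Col27a1, a fibrillar collagen chain (75 and 44, 2.51-fold), Bcar3 (59 and 33, 2.63-fold) and Nuak1, a kinase of the AMPK family (152 and 105, 2.13-fold). Col4a1 and Col4a2, which encode basement membrane collagens and whose opposed starts overlap, so that the pair was not counted among the bidirectional members, had 93 and 65 reads in their common region, 2.11-fold lower (1.52 to 2.94). Chaf1b, a subunit of the histone chaperone CAF-1, had 66 and 46 reads, 2.11-fold lower (1.43 to 3.15). Runx3, a transcription factor, had 44 and 31 reads, 2.09-fold lower (1.29 to 3.43). In each of these Lsh+/+ had more reads. The rule fixes this, since a ratio 2-fold below a median of 1.47 requires fewer Lsh-/- than Lsh+/+ reads. Scaled by total reads, 24 of the 73 lower calls stood, among them 7 of the 34 with a gene: Mpped2, Hoxb3os, Ch25h, Stc2 (log2 ratio -1.17), Hunk (-1.13), Tet1 (-1.09) and Bcar3 (-1.01). Col27a1 (-0.94), Nuak1 (-0.71), Chaf1b (-0.70), Col4a1 with Col4a2 (-0.69) and Runx3 (-0.68) then lay under 2-fold. Chaf1b (-0.61), Runx3 (-0.62) and Nuak1 (-0.99) also lost the call with 5 Mb background scaling, and Chaf1b with the deposited window counts (-0.98).

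The calls were compared with further reads that only the deposited window lists hold. The window counts included up to 3 copies of a position and strand: with up to 3 copies of each listed read, 0 windows held fewer reads than the read list gave, and with 4 copies 1031 did in Lsh+/+ and 1185 in Lsh-/-. After these copies were taken off, 1275516 reads remained for Lsh+/+ and 1300329 for Lsh-/-, at positions that the window lists do not give. No label or header says where these reads come from, and they carry the same sample labels, so they do not repeat the culture. All 26 members called higher had enough further reads: the direction was kept in 24, a ratio of 2-fold or more was found in 8, and 7 met the full rule. Of the 73 called lower, 69 were compared: 67 kept their direction, 25 reached 2-fold and 24 met the full rule. The median log2 ratio of the higher members was 1.19 in the reads that chose them and 0.71 in the further reads, and of the lower members -1.22 and -0.82. Kcnd2 had 15 and 50 further reads (log2 ratio 1.34), Hdac5 20 and 27 (0.03), Mpped2 41 and 11 (-2.30) and Hoxb3os 71 and 22 (-2.09). The higher call at Dact1 was among the 4 whose direction turned, with 16 and 18 further reads (-0.23). Across 4715 members, the log2 ratios of both kinds of reads had a Pearson's r of 0.497, a description across regions that share the same libraries and depth.

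The members' ratios differed between chromosomes. The median log2 ratio of the members ran from -0.28 on chromosome 16, where 0 of 169 were called higher and 6 lower, to 0.36 on chromosome 18, where 6 of 132 were higher and 2 lower. Across 19 chromosomes the medians followed the ratio of background reads outside regions (Pearson's r 0.975, a description in which both measures share the libraries). With the background ratio of 5 Mb bins in the scaling, the medians ran from -0.17 to 0.14, and the calls were 1 higher and 2 lower on chromosome 16, 0 higher and 6 lower on chromosome 18, and 21 and 79 over all members.

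In the gene lists below the calls are few, and over all shared regions under 4000 bp 0.798% were called higher and 1.74% lower, so that with 1 to 25 members a list its share of calls is not read as a result. Among the members of the genes that act on DNA methylation, 1 was called lower. Of 15 genes of this list in the promoter table, 9 lay in a region and 5 in members, with a median log2 ratio of -0.07 against 0.00 over all shared regions under 4000 bp. Hells, the gene that encodes Lsh, had 89 and 131 reads in chr19:38995201-38998000, a log2 ratio of 0.00 and an interval of 0.76 to 1.32-fold. The mark at its promoter was thus present in both libraries and does not check the label. Tet1, which oxidises methylated cytosine, had 47 and 25 reads in chr10:62281401-62282800, 2.77-fold lower in Lsh-/- (1.67 to 4.70), with 31 and 19 further reads (log2 ratio -1.11). Uhrf1, which brings Dnmt1 to hemimethylated DNA, had 105 and 101 reads (log2 ratio -0.62), Tdg, a glycosylase that removes oxidised methylcytosine, 36 and 83 (0.65), and Zbtb24, a zinc finger protein mutated in the same human syndrome as HELLS, 37 and 52 (-0.07). These last 3 were not called. Of 26 imprinted genes, 22 were in the table and 5 in members, and 1 of these, Igf2r, encoding a receptor that clears Igf2, was called lower at 52 and 38 reads, 2.02-fold (1.30 to 3.15). This call was lost when scaled by total reads (log2 ratio -0.63), with 5 Mb background scaling (-0.98), with repeats kept (-0.97) and with the deposited window counts (-0.85), and 25 and 19 further reads gave -0.80. Gnas (74 and 104), Igf2 (27 and 38), Inpp5f (39 and 45) and Zrsr1 (119 and 181) were not called, and the reads do not tell the parental alleles apart.

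The genes that write or remove H3K4 methylation and the SNF2 remodellers had 0 calls among their members. Of 14 writers and erasers in the table, 3 were in members, all of them on the writing side: Setd1a, a methyltransferase (72 and 108 reads, log2 ratio 0.03), and the shared subunits of its complexes Rbbp5 (37 and 81, 0.57) and Dpy30 (63 and 93, 0.00). Of 23 SNF2 genes, 7 were in members, with a median of 0.23. Zranb3, a remodeller of stalled replication forks, had the highest ratio (49 and 105, 0.54), and Ttf2, a transcription termination factor, the lowest (32 and 44, -0.10). Smarca5, the ISWI ATPase, had 73 and 126 reads (0.23), Smarcad1 55 and 95 (0.23), Ino80 90 and 152 (0.20) and Hltf 35 and 64 (0.31).

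Genes of translation, protein breakdown and replication had 1 lower call among their members. Of 63 cytosolic ribosomal protein genes, 43 lay in a region and 25 in members, 0 of them called, with a median log2 ratio of 0.16 and a range from -0.30 (Rps3a1, 56 and 67 reads) to 0.51 (Rps7, 58 and 122), and 17 of 25 above 0. Rpl37 had 97 and 195 reads, a log2 ratio of 0.45. Of 32 proteasome genes, 9 were in members, with a median of 0.10, and 1 was called: Psmb8, a subunit of the immunoproteasome in the MHC, had 36 and 24 reads, 2.21-fold lower (1.28 to 3.87). This call was lost when scaled by total reads (log2 ratio -0.76), with 5 Mb background scaling (-0.97) and with the deposited window counts (-0.98), and 19 and 20 further reads gave -0.33. Its constitutive counterpart Psmb5 had 53 and 109 reads (0.48). Of 25 genes of replication origins and forks, 7 were in members and 0 called, with a median of 0.05. Mcm7, a subunit of the replicative helicase, had 138 and 204 reads (0.00), Orc6, of the origin recognition complex, 165 and 242 (-0.01), Rfc5, of the clamp loader, 39 and 74 (0.36) and Rfc4, on chromosome 16, 48 and 59 (-0.26).

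Of 23 genes of the cell cycle and senescence, 5 were in members and 0 called. Cdkn1a, the p53-induced inhibitor p21, had 74 and 75 reads (log2 ratio -0.54), E2f2 40 and 92 (0.64), Ezh2, the H3K27 methyltransferase, 92 and 158 (0.22), Cdkn2c 128 and 159 (-0.25) and Rbl2 57 and 90 (0.10). Of 16 immediate early genes, 5 were in members and 0 called: Fos had 44 and 82 reads (0.34), Dusp1 109 and 160 (-0.01), Egr2 38 and 50 (-0.16), Klf2 40 and 43 (-0.46) and Zfp36 103 and 107 (-0.50). Of 12 housekeeping genes, 3 were in members and 0 called: Polr2a, the large subunit of RNA polymerase II, had 64 and 150 reads (0.67), Sdha 86 and 155 (0.29) and Gusb 44 and 52 (-0.32). Of 20 germline genes in the table, 19 lay in no region. The other 1, Stag3, a meiotic cohesin subunit, was called higher at 22 and 70 reads, 2.16-fold (1.32 to 3.66), but its region also held the start of Gpc2, and the reads cannot be assigned to either gene.

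**Figure D5:**
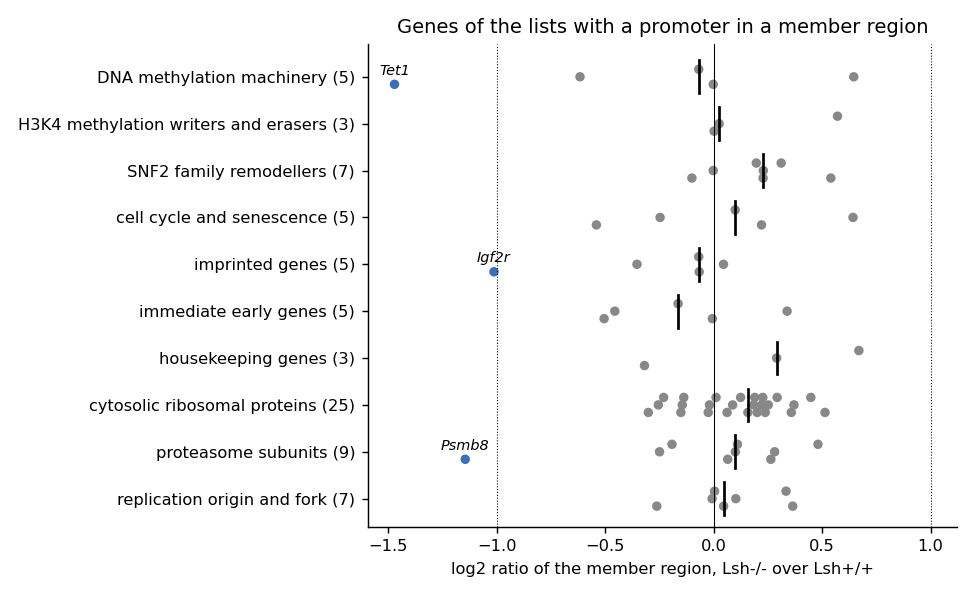
Log2 ratio of Lsh-/- to Lsh+/+ (x axis, median of the shared regions at 0, dotted lines at 2-fold) for genes of each list with a promoter in a member, 1 point per gene and a bar at the list's median, with the number of genes in parentheses (y axis). Lists with at least 3 such genes are drawn; 3 genes, Tet1, Igf2r and Psmb8, were called, all lower in Lsh-/-.

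By level, the members with the most reads per kb and a tied gene were those of Eif2b4 and Snx17 (161 and 256 reads, log2 ratio 0.11), Ndufb8 (95 and 142, 0.02), Ndufb7 (80 and 117, -0.01) and Farsa (64 and 127, 0.43). Eif2b4 and Farsa act in translation, and Ndufb7 and Ndufb8 are subunits of mitochondrial complex I. The other 6 of the 10 densest members had no tied gene and measured 400 to 1000 bp, and 0 of the 10 were called.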

How the data were processed

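Per the submitters' processing notes, reads were aligned to mm8. Which aligner was used is not stated in the labels. The authors deposited, per library, a list of 25-base reads with their positions (a unit of its own, in bp), strand, bases and an alignment score, and a list of whole-number read counts in 200 bp windows. The deposited score ran from 4 to 53 and was not used. The deposited counts are not normalised. When 1 read per position and strand was moved 100 bp from its leftmost base, forward for + and back for -, 0 windows fell below the resulting count, and this held with up to 3 reads per position and strand; what was left beyond these was taken as further reads.

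For all counts made here, repeats of the same position and strand were dropped to 1, and reads were shifted by 75 bp in reading direction. With 1 library per group no model over samples was fitted. Regions named are the 10 leading higher and 10 leading lower calls by the interval bound nearest to 1, the 10 with the most reads per kb, the 2 on each side of each limit, and listed genes in members; others are said to be named after their values were seen. Promoters that overlap were treated as 1 stretch. A promoter was placed by at least 2 reads; 13252 of 32851 were placed, 99.9% on the table's chromosome. Sequences come from RefSeq (GRCm38.p6). The members and gene lists were chosen with earlier results of these data known. The calling rule was tested on simulated data with counting error alone. Such data hold no PCR copies and no differences between cultures, so they cannot test the calls against these. Alternatives covered scaling, repeats, read placing, thresholds, overlap, depth, CpG limits, promoter minimum and window minimum. The work was done in Python 3.11.15 with scipy 1.17.1, pandas 2.3.3, numpy 2.4.6 and, for plots, matplotlib 3.10.9.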

Additional observations from a re-analysis of the deposited data

How the results depend on the processing

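No paired analysis was possible because each group had 1 library. The number of members, 4784, kept within 1.5 times under 3 other limits. The 26 higher and 73 lower calls became 199 and 24 when scaled by total reads (median log2 ratio 0.40 in place of 0.01), 189 and 233 at 1.5-fold, and 2 and 16 at 3-fold. Higher calls were 17 with the deposited window counts and 17 with windows of 8 reads or more. Other settings kept both counts within 1.5 times: repeats kept gave 39 and 108, 5 Mb background scaling 21 and 79 (13 and 54 of them among the main calls), and, chosen after seeing the data, leaving out chromosomes 16 and 18 gave 20 and 65. Of 264 values for 24 named called regions under 11 settings, 240 stayed called, 24 fell below the threshold (12 at 3-fold, 5 with window counts, 4 with 5 Mb scaling, 2 by total reads, 1 with repeats kept) and 0 reversed. Part of this was fixed in advance. At 40 reads or more, with no minimum and at 1.5-fold, the ratios were unchanged and these regions had to stay called. Scaling by total reads raised every ratio, so each higher call had to stay. With the expected background taken off, the interval of the main setting was kept and only the ratio moved. At 3-fold the ratio was also unchanged and could not reverse. Most of the regions were moreover chosen as the leading calls. The share wider in Lsh-/-, 61.9%, was 1.56% with the Lsh-/- minimum raised and 39.7% after thinning, the latter chosen after seeing the data. Further reads gave the same direction in 95.8% of called members, 88.4% when scaled by their total and 100% with copies of listed reads left in, the last chosen after seeing the data. Lower calls among bidirectional members were 0, and 2 with opposed starts in any order, also chosen later. A promoter was tied to 71.3% with 1 matching read and 57.7% with 4. The quotient of the outer upstream zone over the first nucleosome, 1.16, was 1.13 with repeats kept, an alternative also chosen later. The cause of these changes was not tested beyond the settings' own construction. Depth limits the calls: with 89 and 131 reads, the interval of Hells ran from 0.76 to 1.32-fold, and changes under 2-fold were not called.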

Other observations

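Several lower members with no tied gene ended close to a placed start site, and they are named here after their values were seen. Of all 1542 members with no tied promoter, called or not, 257 (16.7%) had a placed start site within 1 kb. Nearness to a start is thus not read as a trait of the lower calls. The region chr7:83961601-83962600 had 30 Lsh+/+ and 14 Lsh-/- reads, 3.16-fold lower (1.62 to 6.45), and lay 0.09 kb from the start of Cemip, which encodes a hyaluronan-binding protein that acts in hyaluronan breakdown. The region chr7:30859001-30859800 had 36 and 19 reads, 2.79-fold lower (1.56 to 5.15), and lay 0.131 kb from the start of Gramd1a, a cholesterol transfer protein. The region chr14:33030001-33030600, 0.125 kb from the start of Gprin2, had 22 and 15 reads, 2.16-fold lower (1.07 to 4.48). The region chr7:96085401-96086200, 0.663 kb from the start of Tenm4, a teneurin, had 21 and 14 reads, 2.21-fold lower (1.07 to 4.70). Nearness to a start was not taken as a tie to the gene.

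The narrowest lower member, chr15:82051401-82051600, spanned 1 window of 200 bp with 17 and 11 reads and lay 0.035 kb from the start of Tnfrsf13c. It was 1 of 4 called members, all lower, that had too few further reads to compare, at 5 and 9, and those pointed the other way with a log2 ratio of 0.45.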
